A study of Homo sapiens with 8 samples.

Results

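Cytosolic ribosomal protein genes were chosen by symbol (RPL, RPS, RPLP or RPSA names, with the final A, X, L, AL or L1 of some family members) and by a mean of at least 5 counts per 1000000 counts (CPM) over all libraries. The table held 58870 genes, of which 85 had such a symbol and 83 reached that level. These 83 genes comprised 46 of the large subunit, 31 of the small subunit and 6 paralogs whose symbols end in L or L1 (RPL26L1, RPL7L1, RPL22L1, RPL39L, RPL36AL and RPS27L). All 83 passed the filter for testing, among 13860 genes tested. The 2 symbols below the level, RPL3L and RPL10L, had no count in any of the 8 libraries. Over the 130811594 counts of the series, a count of 0 allows up to 3 counts, or 0.0229 CPM, by counting error alone. The lowest gene inside the level was RPL39L, with 19.1 CPM.

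The libraries came from Panc 10.05, a long-established cell line of human pancreatic ductal adenocarcinoma. The labels give 4 libraries as Panc 10.05 control and 4 as Panc 10.05 ELAPOR1 transgene, an overexpression of ELAPOR1, a membrane protein of endosomes and lysosomes. How the transgene was delivered, its promoter, what the control cells carried, and whether the replicates were separate cultures were not given in the sources used here. The p-values therefore measure the spread between these libraries, which may be technical.

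Ribosomal proteins assemble with ribosomal RNA into the large subunit, which joins amino acids, and the small subunit, which decodes the mRNA. Most of their mRNAs begin with a C followed by an unbroken run of pyrimidines, the 5′ terminal oligopyrimidine (TOP) tract, through which LARP1 and mTORC1 signalling control their translation and stability. Several genes have paralogs, expressed at lower levels, that can replace the usual protein in the ribosome or act elsewhere, such as in ribosome assembly.

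ELAPOR1 itself was listed with 1, 1, 4 and 4 counts in the control libraries and with 7006, 6422, 5910 and 7368 in the ELAPOR1 libraries, so the libraries matched their labels. Total counts ran from 13765509 to 18128757 per library. All 7 ductal epithelial markers examined were expressed, with a summed level of 11949 to 13155 CPM in control and 11339 to 11653 CPM in ELAPOR1 libraries. The sum rests mainly on KRT8 and KRT18, which were lower in every ELAPOR1 library than in any control. KRT7, KRT19 and CDH1 were instead higher in every ELAPOR1 library, and EPCAM and MUC1 overlapped between groups. Summed fibroblast markers were at 2.72 to 4.30 CPM, endothelial markers at 0.581 to 1.93 CPM, and acinar markers at 0 in all libraries. Of the 5 leukocyte markers only CD68, which epithelial cells also express, exceeded 1 CPM, and CD3E was at 0 in every library.

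Start sites are shown first, as a description of genes chosen after their fold changes were known. Each sequence, from RefSeq on GRCh38.p14, runs 5′ to 3′ on the gene's strand from 10 bases before the annotated start, so that base 11 is the first base of the transcript. Capitals mark the longest unbroken run of C and T where it reaches 5 bases. RPL3, RPL4, RPS25 and RPS3A had the largest falls described below, RPSA and RPL14 did not pass the test, and the others are paralogs with their partner genes.
RPL3, chr22:39319604-39319633, minus strand: gccgaccggCCTCTaccggcgggatttgat
RPL4, chr15:66504836-66504865, minus strand: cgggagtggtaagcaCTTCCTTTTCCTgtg
RPS25, chr11:119018324-119018353, minus strand: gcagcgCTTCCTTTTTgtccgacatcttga
RPS3A, chr4:151099618-151099647, plus strand: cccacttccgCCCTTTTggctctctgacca
RPSA, chr3:39406710-39406739, plus strand: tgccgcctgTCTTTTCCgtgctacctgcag
RPL14, chr3:40457329-40457358, plus strand: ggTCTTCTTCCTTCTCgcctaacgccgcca
RPL22, chr1:6199576-6199605, minus strand: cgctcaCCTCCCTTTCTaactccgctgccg
RPL22L1, chr3:170870176-170870205, minus strand: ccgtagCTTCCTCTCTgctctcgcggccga
RPL36A, chrX:101391001-101391030, plus strand: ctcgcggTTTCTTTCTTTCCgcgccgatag
RPL36AL, chr14:49620607-49620636, minus strand: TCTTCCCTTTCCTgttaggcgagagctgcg
RPL26, chr17:8383174-8383203, minus strand: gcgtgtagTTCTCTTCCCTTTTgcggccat
RPL26L1, chr5:172958719-172958748, plus strand: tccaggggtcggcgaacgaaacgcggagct
RPL26L1, chr5:172958870-172958899, plus strand: ggcggcggccacaaacccgcaggcacgccg
RPS27, chr1:153990752-153990781, plus strand: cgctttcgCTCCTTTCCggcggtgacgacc
RPS27L, chr15:63157458-63157487, minus strand: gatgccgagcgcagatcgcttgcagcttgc
RPL7L1, chr6:42879606-42879635, plus strand: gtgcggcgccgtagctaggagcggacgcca

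A run of at least 5 C or T, on the gene's strand, was present in these 30 bases for 64 of the 67 genes with an entry in the table of starts. The 3 without one were RPL26L1, RPL7L1 and RPS27L. Such a run is common, since 48.9% of all starts in the table hold one. The stricter TOP rule asked for a C at the annotated start followed by at least 4 bases that are each C or T, again on the gene's strand. It was met by 47 of the 67 genes (70.1%), against 7.33% of tested genes with an entry and 4.07% of all starts. RPL3, RPL4 and RPL36AL have a run but failed the strict rule. The run of RPL3 is short, that of RPL4 begins after the annotated start, and that of RPL36AL ends too soon after it. A match describes these letters only. The 16 genes without an entry included RPL39L, RPL7, RPL8 and RPS15A.

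Expression of ribosomal protein genes was lower in ELAPOR1 cells across both subunits. Of the 83 genes, 79 fell, 1 rose (RPL7L1) and 3 (RPL14, RPSA and RPL26L1) did not pass the threshold (edgeR quasi-likelihood test, adjusted p under 0.05, Benjamini-Hochberg over all tested genes). Among all tested genes 44.7% passed, 22.1% lower and 22.6% higher, and among 2183 other genes of at least 100 CPM, 27.7% were lower. The median log2 fold change was -0.36 (a fall by 22.3%), against 0.00087 over all tested genes, and no gene fell by 1.5-fold. In 75 genes every ELAPOR1 library lay below every control library, as did 19.3% of tested genes. RPL7L1 was the only member to lie wholly above, and 7 genes overlapped, among them RPL14, RPL26L1, RPS15, RPS19, RPS26 and RPSA. CPM are relative to all other transcripts, and RNA per cell was not measured here, so less RNA from these genes cannot be told apart from more RNA from the rest.

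**Figure D1:**
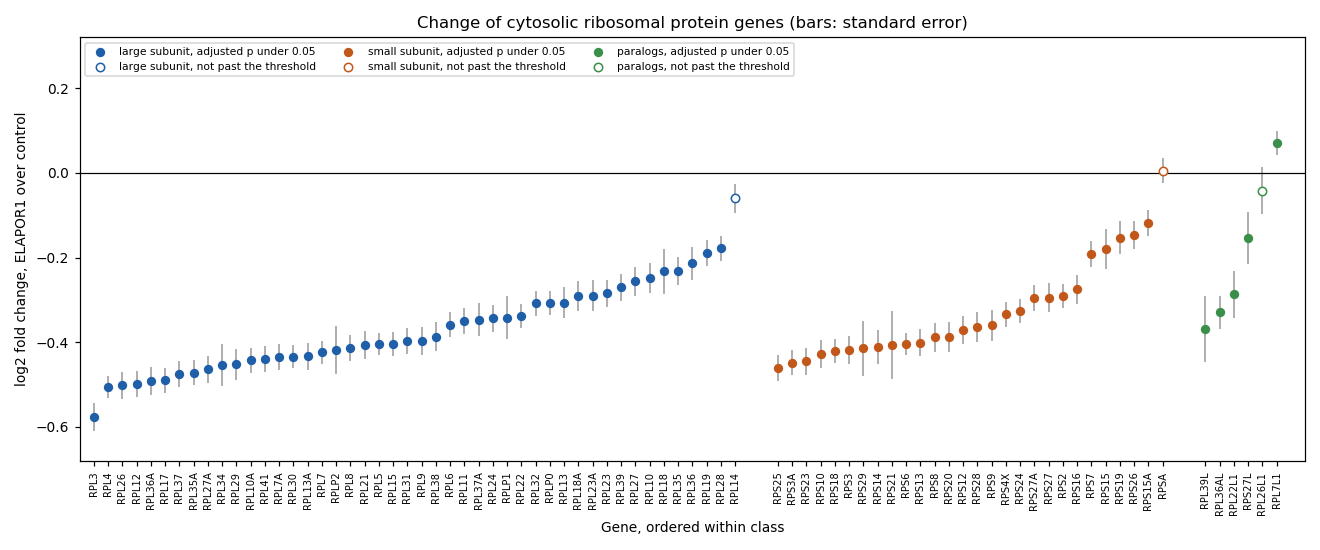
Log2 fold change (ELAPOR1 over control) of 80 of the 83 genes with standard errors, ordered within large subunit, small subunit and paralogs; filled points passed the edgeR threshold. Values run from -0.58 (RPL3) to 0.07 (RPL7L1), and RPL14, RPSA and RPL26L1 are open.

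Together the 83 genes took 6.94%, 7.53%, 7.50% and 7.73% of the counts in control libraries and 5.98%, 5.92%, 5.79% and 5.79% in ELAPOR1 libraries. The groups did not overlap, with means of 7.42 ± 0.337% and 5.87 ± 0.0955% (SD, n = 4 each). The summed counts of pseudogenes named after these genes, which can take reads from them, added 0.140 ± 0.00783% in control libraries and 0.113 ± 0.00180% with ELAPOR1.

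Large subunit genes fell slightly more than small subunit genes in sum. Large subunit genes went from 4.70 ± 0.211% to 3.65 ± 0.0615% of counts and small subunit genes from 2.66 ± 0.125% to 2.16 ± 0.0338% (SD, n = 4 each). The ratio of large to small subunit counts was 1.77, 1.76, 1.76 and 1.77 in control libraries and 1.69 in each ELAPOR1 library, with no overlap. As a score over the chosen genes this ratio was not tested. The paralogs together went from 0.0672 ± 0.00199% to 0.0638 ± 0.000883%, so their ranges overlapped.

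**Figure D2:**
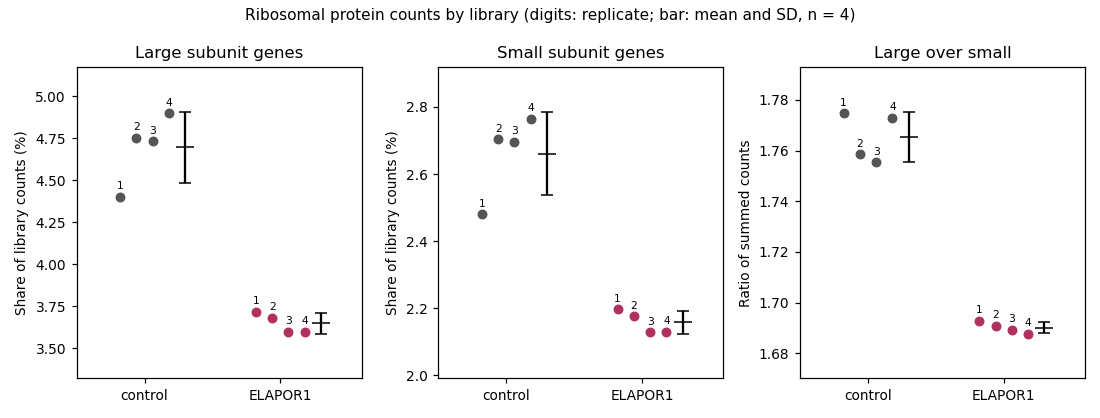
Share of library counts (%) of large and small subunit genes, and the ratio of their summed counts, in each library (digits give the replicate; bars are mean and SD, n = 4). Control replicate 1 is lowest of the controls in both shares, and the ELAPOR1 ratios sit near 1.69, below all controls.

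Control replicate 1 stood apart from the other controls. It was the lowest control library for 82 of the 83 genes, while its large to small ratio was the highest of the controls. The median coefficient of variation of these genes was 5.20% in control and 2.40% in ELAPOR1 libraries, against 3.44% and 2.36% for other genes of at least 100 CPM. Without control replicate 1, 80 genes were called, all lower. RPL14 was then called (log2 fold change -0.10, edgeR adjusted p = 0.0010), RPL7L1 was not, and the class medians were -0.43 for the large subunit, -0.41 for the small subunit and -0.26 for the paralogs.

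**Figure D3:**
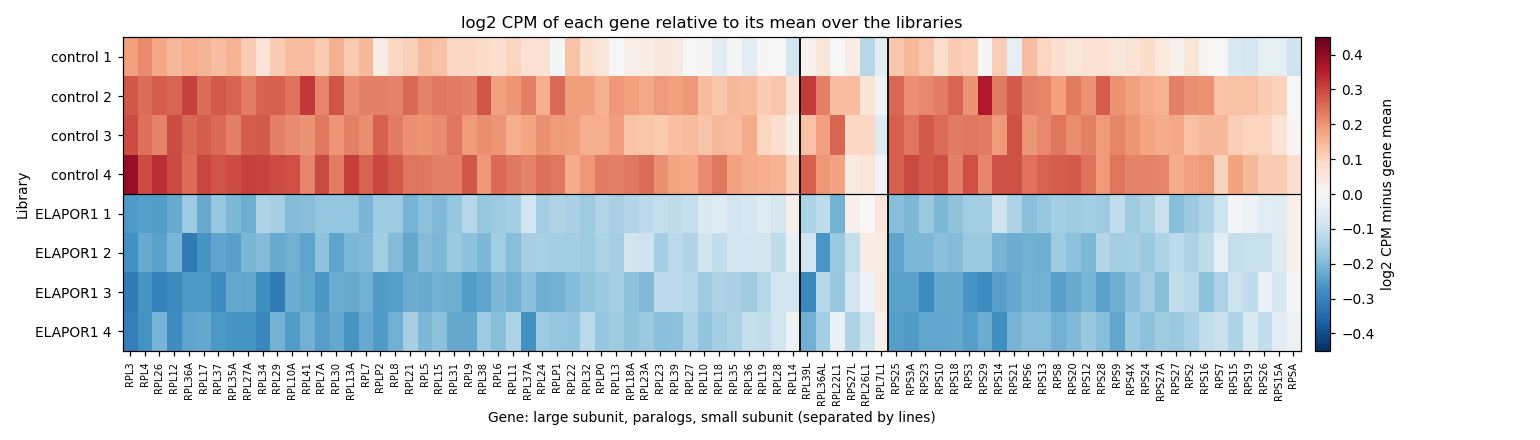
Log2 CPM of 80 genes minus each gene's mean over the 8 libraries, with genes on the horizontal axis (large subunit, paralogs and small subunit, separated by lines) and libraries on the vertical axis. Control replicate 1 is paler than the other controls, and the right end of each class holds the genes that changed least.

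Of the 46 large subunit genes 45 fell, with a median log2 fold change of -0.40. The largest fall was that of RPL3 (ENSG00000100316.16, minus strand of chromosome 22, 39312882 to 39320389), a core protein close to the peptidyl transferase centre. It was at 1761, 1878, 1899 and 2033 CPM in control libraries and at 1298, 1282, 1245 and 1251 CPM in ELAPOR1 libraries. Every ELAPOR1 library lay below every control, with a log2 fold change of -0.58 (edgeR adjusted p = 1.95e-14, with SE 0.0320).

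RPL4 (ENSG00000174444.15, minus strand of chromosome 15, 66498015 to 66524532), which lines the exit tunnel of the nascent chain, was at 2805, 2881, 2873 and 2966 CPM in control and 2036, 2065, 2011 and 2006 CPM in ELAPOR1 libraries. The groups were far apart relative to their spread, and the log2 fold change was -0.51 (edgeR adjusted p = 1.40e-17, with SE 0.0253). RPL26, which lies near the exit of the same tunnel, was at 517, 554, 536 and 578 CPM in control and 385, 388, 372 and 397 CPM in ELAPOR1 libraries. Its groups did not overlap either, with a log2 fold change of -0.50 (SE 0.0317). RPL12, at the base of the stalk that recruits translation factors, fell by 0.50 on the log2 scale. RPL36A, which contacts the exit site for spent tRNA, fell by 0.49.

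Other large subunit genes with particular roles fell by similar amounts. RPL5 and RPL11, which bind MDM2 together with 5S rRNA when ribosome assembly is disturbed, had log2 fold changes of -0.40 and -0.35. The acidic stalk proteins RPLP0, RPLP1 and RPLP2 had log2 fold changes of -0.31, -0.34 and -0.42. On the scale of CPM per kilobase of annotated transcript, the highest levels were those of RPL8 (2760 in control and 2070 in ELAPOR1), RPLP0 (2752 and 2223) and RPL7A (2701 and 1998). RPL8 and RPL7A had log2 fold changes of -0.41 and -0.43, and neither of these most abundant mRNAs was at an extreme of the subunit. The smallest falls that passed were those of RPL28 (-0.18) and RPL19 (-0.19).

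RPL14 (ENSG00000188846.13, plus strand of chromosome 3, 40457292 to 40468587), a protein of the solvent side, was the large subunit gene that was not called. It was at 436, 484, 470 and 498 CPM in control and 469, 450, 435 and 455 CPM in ELAPOR1 libraries. The groups overlapped, and the log2 fold change was -0.06 (edgeR adjusted p = 0.153, with SE 0.0341).

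Of the 31 small subunit genes 30 fell, with a median log2 fold change of -0.36. RPS25 (ENSG00000118181.11, minus strand of chromosome 11, 119015712 to 119018691), known for its part in initiation at viral internal ribosome entry sites, had the largest fall. It was at 665, 730, 736 and 736 CPM in control and 535, 518, 517 and 515 CPM in ELAPOR1 libraries. No library crossed between groups, and the log2 fold change was -0.46 (edgeR adjusted p = 2.71e-14, with SE 0.0307).

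RPS3A, which lies near the mRNA exit, was at 893, 930, 953 and 990 CPM in control and 701, 701, 683 and 676 CPM in ELAPOR1 libraries. All ELAPOR1 libraries were lower, with a log2 fold change of -0.45 (SE 0.0293). RPS23, of the decoding centre, and RPS10, near the mRNA entry, had log2 fold changes of -0.44 and -0.43. RPS6, the substrate of the S6 kinases, fell by 0.40. Per kilobase RPS18 was the most abundant small subunit mRNA (2741 CPM per kilobase in control and 2048 in ELAPOR1), and it fell by 0.42 on the log2 scale.

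RPSA (ENSG00000168028.14, plus strand of chromosome 3, 39406689 to 39412542), a small subunit protein that is also the precursor of a laminin receptor, was the small subunit gene not called. It was at 935, 998, 1003 and 1050 CPM in control and 1013, 1014, 991 and 980 CPM in ELAPOR1 libraries. The ELAPOR1 libraries lay within the range of the controls, and the log2 fold change was 0.0047 (edgeR adjusted p = 0.913, with SE 0.0295).

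Some called small subunit genes fell by far less than the median. RPS15A was at 355, 394, 382 and 398 CPM in control and 353, 352, 349 and 354 CPM in ELAPOR1 libraries. Here the groups met without overlapping, and the log2 fold change was -0.12 (edgeR adjusted p = 0.00245, with SE 0.0316). RPS26 and RPS19, both mutated in Diamond-Blackfan anaemia, had log2 fold changes of -0.15.

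The paralogs moved less in concert than the canonical genes. Of the 6, 4 fell, 1 rose and 1 was not called, with a median log2 fold change of -0.22, while 75 of the 77 canonical genes fell. RPL7L1 (ENSG00000146223.14, plus strand of chromosome 6, 42879618 to 42889925), related to RPL7 and known as a nucleolar factor in large subunit assembly, was at 323, 330, 321 and 330 CPM in control and 346, 342, 344 and 339 CPM in ELAPOR1 libraries. All ELAPOR1 libraries were above all controls, by a log2 fold change of 0.07 (edgeR adjusted p = 0.0410, with SE 0.0283). This call was lost in 13 of 20 alternative fits, among them those without any 1 library other than control replicate 4, and its log2 fold change ranged from 0.0078 to 0.09 over the 20.

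RPL26L1 (ENSG00000037241.7, plus strand of chromosome 5, 172958729 to 172969771) was at 39.1, 44.7, 45.6 and 44.4 CPM in control and 42.8, 43.8, 42.0 and 40.1 CPM in ELAPOR1 libraries. The groups overlapped (log2 fold change -0.04, edgeR adjusted p = 0.570, with SE 0.0556). RPS27L, a paralog known as a p53 target, was at 30.6, 32.9, 31.9 and 30.7 CPM in control and 30.4, 27.7, 28.1 and 27.1 CPM in ELAPOR1 libraries. The highest ELAPOR1 library was just under the lowest control, with a log2 fold change of -0.15 (edgeR adjusted p = 0.0407, with SE 0.0614), a call lost in 11 of 20 alternative fits (log2 fold change -0.19 to -0.08), including those without control replicate 2 or 3 or ELAPOR1 replicate 2, 3 or 4.

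The other 3 paralogs fell by amounts closer to the canonical genes. RPL22L1 was at 47.1, 51.9, 56.5 and 53.5 CPM in control and 40.7, 42.0, 42.0 and 46.3 CPM in ELAPOR1 libraries. The groups did not overlap, and the log2 fold change was -0.29 (SE 0.0562). RPL36AL fell by 0.33 and RPL39L, known from testis and some tumours, by 0.37 on the log2 scale. RPL39L had the fewest counts and the widest error of the 6 (SE 0.0790), at 19.2, 23.5, 20.7 and 22.8 CPM in control and 17.1, 17.8, 15.5 and 16.3 CPM in ELAPOR1 libraries.

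Each paralog was then set against its partner within each library, a ratio that does not depend on library scaling. RPL7L1 counts were 13.7%, 13.2%, 13.0% and 12.9% of RPL7 counts in control and 18.6%, 18.3%, 18.7% and 18.5% in ELAPOR1 libraries. The log2 ratio was higher by 0.49 in ELAPOR1, and the groups were far apart. RPL26L1 counts were 7.55%, 8.07%, 8.51% and 7.69% of RPL26 counts in control and 11.1%, 11.3%, 11.3% and 10.1% in ELAPOR1 libraries. Again no library crossed, with a difference in log2 ratio of 0.46. RPL36AL was at 42.1 ± 0.714% of RPL36A in control libraries and at 47.1 ± 1.22% with ELAPOR1 (SD, n = 4 each), a difference in log2 ratio of 0.16. In these 3 pairs all 4 ELAPOR1 libraries exceeded all controls, with an exact permutation p of 0.0286 (two-sided), the lowest value possible with 4 libraries in each group. Adjusted over the 6 pairs compared this became 0.0571, so 3 pairs were under 0.05 unadjusted and 0 after adjustment by the exact permutation test. With only 3 pairs at the lowest possible value, this adjustment cannot give less than 0.0571, so the adjusted count cannot decide about these pairs.

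RPS27L was at 5.19 ± 0.219% of RPS27 in control libraries and at 5.72 ± 0.398% with ELAPOR1, a difference in log2 ratio of 0.14 (exact permutation p = 0.0571, adjusted 0.0857). The difference was 0.05 for RPL22L1 over RPL22 (exact permutation p = 0.543, adjusted 0.543). It was -0.10 for RPL39L over RPL39 (exact permutation p = 0.143, adjusted 0.171). In all 3 of these pairs the groups overlapped. The changes in ratio for RPL7L1 and RPL26L1 rest mainly on the partners, which had log2 fold changes of -0.42 (RPL7) and -0.50 (RPL26), while the paralogs themselves moved by less than 0.1.

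**Figure D4:**
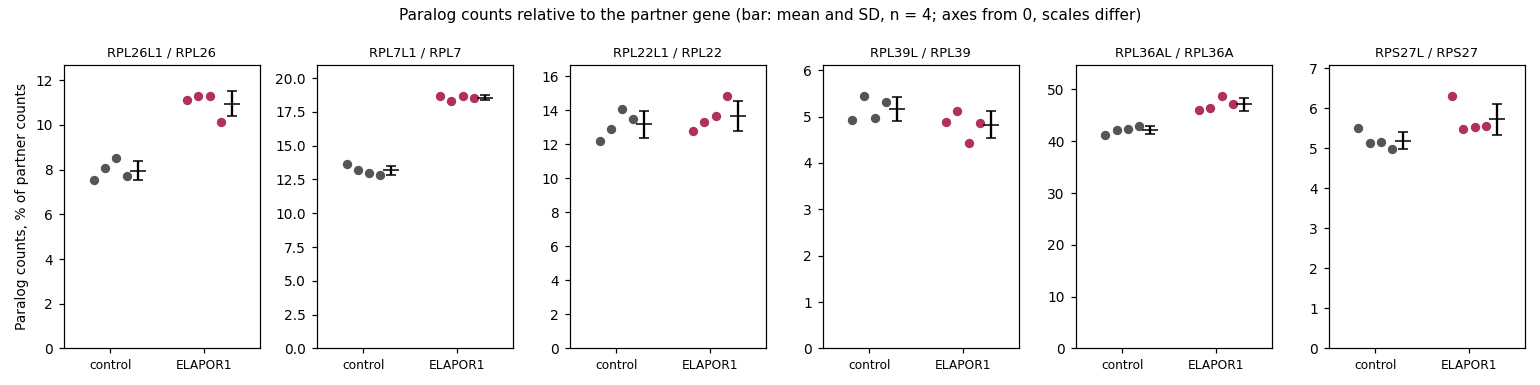
Paralog counts as a percentage of partner counts in each library for the 6 pairs (bars are mean and SD, n = 4; each axis starts at 0 and has its own scale). RPL7L1, RPL26L1 and RPL36AL lie higher in all 4 ELAPOR1 libraries, whereas RPL22L1, RPL39L and RPS27L overlap between groups.

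Reading the start sites beside these values, the 3 genes without a pyrimidine run, RPL26L1, RPL7L1 and RPS27L, had a median log2 fold change of -0.04, against -0.37 for the 64 with a run. The groups of 3 and 64 were formed after these values were known. All 3 are paralogs, and whether the missing run or being a paralog goes with the smaller change was not tested. Within the strict rule, 45 of 47 genes with a TOP start fell (median -0.39), as did 18 of 20 with an entry but no TOP start (median -0.33). RPSA and RPL14, with log2 fold changes near 0, both have a TOP start. Among the other tested genes with an entry, 254 of 680 with a TOP start were lower (37.4%, median log2 fold change -0.07). Of the 9173 without one, 20.9% were lower (median 0.02).

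The genes were also compared with their neighbours on the chromosome. For each gene the 20 nearest other genes of at least 5 CPM (10 on each side) were taken, or 12 for RPL35A, 16 for RPL8 and 19 for RPS7 near chromosome ends. The neighbours of RPS15A, on chromosome 16, had the highest median log2 fold change, 0.38, with 14 of 20 higher and 0 lower by edgeR's test (also 0 lower at an unadjusted p under 0.05). The neighbours of RPSA and RPL14, about a megabase apart on chromosome 3, followed with 0.22 (13 higher, 1 lower) and 0.17 (12 higher, 1 lower). The stretches that hold these neighbours overlap in large part. RPL23A was close to RPL14, with a neighbour median of 0.17, and had a log2 fold change of -0.29. RPSA and RPL14 are the canonical genes that were not called, and RPS15A had one of the smallest called falls. Relative to the median of their neighbours, the log2 fold changes were -0.21 for RPSA, -0.23 for RPL14 and -0.50 for RPS15A. Those of RPL3 and RPL7L1 were -0.62 and 0.14.

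The largest small subunit falls had neighbour medians of -0.09 (RPS25), -0.0020 (RPS3A), -0.06 (RPS23) and -0.17 (RPS10). RPL5, in contrast to RPS15A, fell by 0.40 on the log2 scale while 14 of its 20 neighbours were higher (median 0.16). Across genes, Pearson's r between the log2 fold change of a gene and the median of its neighbours was 0.39 (n = 83), with 0.36 for the large (n = 46) and 0.63 for the small subunit (n = 31). These are descriptions, since the genes share the same 8 libraries and some share neighbours, and the comparison was chosen after values were seen. Whether copy number or another regional feature differed between the cells was not tested.

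**Figure D5:**
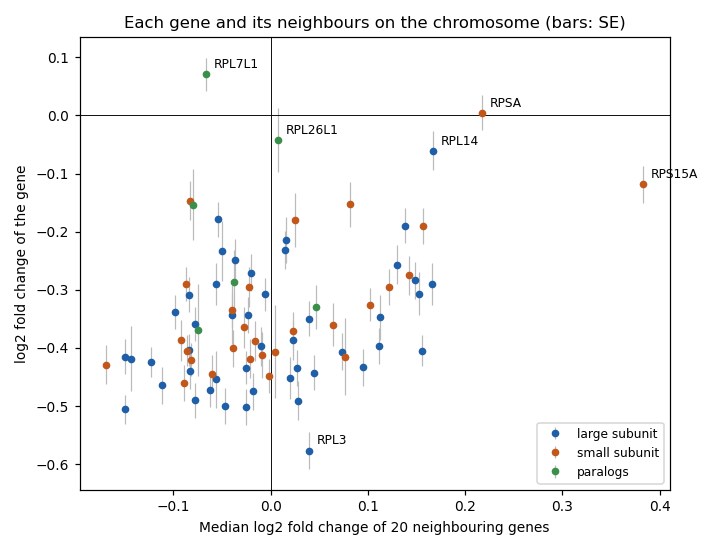
Log2 fold change of 80 genes (vertical, with SE) against the median log2 fold change of the 20 neighbouring genes (horizontal), coloured by class. RPSA, RPL14 and RPS15A lie to the right, at neighbour medians of 0.22, 0.17 and 0.38. Genes that fell lie close to RPL14 on the horizontal axis, such as RPL23A at 0.17.

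Of the 12 genes on chromosome 19 all fell, with a median log2 fold change of -0.22, against -0.40 for the 65 canonical genes elsewhere and 0.04 for 737 other genes on that chromosome. These 12 genes were rich in G and C (median 58.1% of the transcript), and RPS15 and RPS19, whose groups overlapped, are among them. More generally, the 14 genes with at least 55% GC had a median of -0.26 and the 69 others -0.39. For other genes of at least 100 CPM the median was 0.02 at 55% GC or more and 0.03 under 45% GC. When trends of the libraries with GC content and with transcript length were removed, 71 genes were called, all lower, and calls including those of RPS19, RPS15, RPL36, RPL35, RPL39, RPS27 and RPS27L and the rise of RPL7L1 were lost.

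Many ribosomal protein genes host small nucleolar RNAs in their introns. The 28 genes with an annotated snoRNA inside had a median log2 fold change of -0.40, of which 27 fell (the exception being RPSA), and the 49 canonical genes without one had a median of -0.36, of which 48 fell.

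Ribosomal protein genes have many near-identical pseudogenes, and the estimated counts split reads among such copies. Of the nonzero values of these 83 genes 59.8% were not whole numbers, against 15.0% of all nonzero values. The 23 genes with only whole values all fell, with a median log2 fold change of -0.35. Of the 60 genes with any non-whole value 56 fell, with a median of -0.39. RPSA and RPL14 had no whole value in any library. The same held for RPL3, RPL4, RPS25 and RPS3A, which had large falls. Pseudogene rows held 77.0% as many counts as RPL23A itself, 27.7% for RPL9, 26.8% for RPL21, 21.1% for RPS2, 9.76% for RPL22 and 6.57% for RPSA. How reads split between these genes and their copies is uncertain, but these shares are not errors of the fold changes. Of 45 pseudogene rows tested 18 were lower and 0 higher by edgeR's test (1 higher at an unadjusted p under 0.05, and 0 higher by DESeq2 or limma-voom). Over all tested genes 22.1% were lower and 22.6% higher. Since pseudogenes can take reads from their parents, their direction is not independent of the parents. Adding pseudogene counts to their parents left 80 genes called, 79 of them lower. Of the 83 genes 44 overlap another annotated gene, 15 of them on the same strand. Whether counting used strand was not given in the sources used here.

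Ribosomal proteins with other names also fell. RACK1, the scaffold protein of the small subunit, was at 1640, 1802, 1777 and 1895 CPM in control and 1368, 1354, 1352 and 1322 CPM in ELAPOR1 libraries. The groups did not overlap, and it fell by 0.40 on the log2 scale (edgeR adjusted p = 2.91e-11, with SE 0.0317). FAU, which encodes a ubiquitin-like protein fused to RPS30, had a log2 fold change of -0.19.

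Other genes known for TOP mRNAs moved in the same direction. Of 19 listed 18 were tested, and all 18 fell, against 22.1% of all tested genes, with a median log2 fold change of -0.39. EIF4B, an initiation factor, was at 1043, 1045, 1024 and 986 CPM in control and 630, 644, 656 and 647 CPM in ELAPOR1 libraries. Its fall, 0.67 on the log2 scale, exceeded that of every ribosomal protein gene. TPT1, the translationally controlled tumour protein, and EEF1A1, the elongation factor that delivers tRNA, had log2 fold changes of -0.58 and -0.54. The smallest fall was that of NPM1, a nucleolar chaperone (-0.11).

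Ribosomal proteins of mitochondria, which belong to a separate ribosome and whose mRNAs are not of the TOP class, were examined next. Of 78 tested 13 fell (16.7%) and 9 rose (11.5%), against 22.1% and 22.6% of all tested genes, with a median log2 fold change of -0.01.

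Among 18 genes of TOP and mTORC1 regulation 7 rose (38.9%), 3 fell (16.7%) and 8 were not called. Over all tested genes 22.6% rose and 22.1% fell. Among tested genes of at least 5 CPM 26.3% rose and 25.1% fell. Among other genes of at least 100 CPM 39.0% rose and 27.7% fell. Many listed genes, MTOR among them, lay below 100 CPM. The list's share of rises was thus near that of the highest set only, and above the others. MTOR, the kinase, was at 71.0, 64.4, 64.5 and 62.4 CPM in control and 80.5, 85.3, 81.1 and 85.8 CPM in ELAPOR1 libraries. The groups did not overlap, with a log2 fold change of 0.34. EIF4EBP1, an mTORC1 substrate that restrains initiation, fell by 0.43 on the log2 scale, while its relative EIF4EBP2 rose by 0.32. LARP1, the TOP-binding protein, rose by 0.11. These are mRNA levels, and mTORC1 activity was not measured here.

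Of 15 listed chaperones and importers of ribosomal proteins 9 rose, 0 fell and 6 were not called by edgeR's test. At an unadjusted p under 0.05, or by DESeq2 or limma-voom, 0 fell as well. The list is not limited to factors dedicated to ribosomal proteins. The rises made up 60.0% of the list, against 22.6% of all tested genes and 39.0% of other genes of at least 100 CPM. GRWD1, the chaperone of RPL3, was at 60.9, 63.1, 57.1 and 61.7 CPM in control and 89.1, 94.1, 85.2 and 92.9 CPM in ELAPOR1 libraries. The groups were well apart, and GRWD1 rose by 0.57 on the log2 scale (edgeR adjusted p = 1.04e-12, with SE 0.0445) where RPL3 fell by 0.58. HEATR3, which imports RPL5, and KPNB1, a general importin, rose by 0.31 and 0.27.

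In the list of genes that respond when free ribosomal proteins bind MDM2, 2 of 10 rose, 3 fell and 5 were not called, shares near the 22.6% higher and 22.1% lower over all tested genes. CDKN1A, the p21 cell cycle inhibitor, was at 15.4, 17.2, 16.4 and 15.9 CPM in control and 29.7, 27.2, 30.3 and 25.6 CPM in ELAPOR1 libraries. Every ELAPOR1 library was higher, by a log2 fold change of 0.80. BBC3, the apoptosis gene also called PUMA, fell by 0.76, and MDM2 itself fell by 0.26.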

How the data were processed

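RNA sequencing was analysed in 8 libraries (4 control, 4 ELAPOR1). The authors deposited estimated counts per gene, unscaled, in 1 table. The submitters' processing notes list cutadapt, STAR, RSEM, DESeq2 and hg38 with no role or version. The annotation and use of strand were not given in the sources used here. After rounding of these expected counts, edgeR 4.0.16 was run in R 4.3.3 (filterByExpr, TMM scaling, robust quasi-likelihood test, 2-sided, no covariate). P-values were adjusted by the Benjamini-Hochberg method over 13860 genes, and adjusted p-values under 0.05 were called. CPM are TMM-scaled, except in the choice of genes, which used column totals. Paralog ratios were compared by a two-sided exact permutation test. Libraries held 13765509 to 18128757 counts. The limit given for genes without counts covers counting error only, and no molecular identifiers are mentioned in the sources used here. Standard errors are from the edgeR fit and include the spread between libraries. SDs are over the 4 libraries of each group.

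Positions, transcript length and GC content (medians over basic transcripts) are from GENCODE 29 on GRCh38, in which all 83 genes were found. Start sequences are from RefSeq on GRCh38.p14, with an entry for 67 of them. The genes named were ELAPOR1, the 5 called genes of each subunit with the largest rise or fall, the 3 most abundant per kilobase, paralogs with partners, genes at the level cutoff, genes whose neighbours shifted, and the 2 called genes of each other list with the largest change. A few genes that these rules give are not reported by name here or in the plots, and they are kept in the counts. Others named were chosen after their values were seen. Members, lists and comparisons were chosen with earlier results of these data known. Alternatives were other scalings, DESeq2 1.42.0, limma-voom 3.58.1, other filters and thresholds, pseudogene counts added to parents, the replicate number as a block, GC and length trends removed (splines with 5 degrees of freedom), and each library left out. Counts were simulated for 13860 genes of this comparison, of which 13684 were tested. There 68.0% of 50 genes changed 1.35-fold were called, and 46.0% of 50 changed 1.2-fold. Of the simulated calls 6.16% were false. The changed genes were drawn at random over all levels, so these shares do not describe the ribosomal protein genes in particular.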

Additional observations from a re-analysis of the deposited data

Results flagged for a closer look

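Among 72 groups of 4 libraries examined, 5 held a library far from the other 3, where chance gives 3.6. RPS25 in control replicate 1 was at 664.8 CPM, against 730.0 to 735.9 CPM in the other controls. That library was the lowest control for 82 of the 83 genes. RPS25 in ELAPOR1 replicate 1 was at 534.5 CPM, against 514.8 to 517.7 CPM. RPL39 in ELAPOR1 replicate 4 was at 334.1 CPM, against 348.4 to 350.6 CPM. The log2 ratio of RPL26L1 to RPL26 in ELAPOR1 replicate 4 was -3.31, against -3.17 to -3.14, and that of RPS27L to RPS27 in ELAPOR1 replicate 1 was -3.98, against -4.19 to -4.17. In each case the library stayed on its own group's side of every library of the other group.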

How the results depend on the processing

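The number of ribosomal protein genes called, 80 as reported, was 77 to 80 when each library was left out in turn and 78 to 80 under the other scalings, tools and count filters. It was 77 at an adjusted p-value under 0.01 and 71 with GC and length trends removed. The test against a 1.2-fold change called 47. With GC and length trends removed the median log2 fold changes were -0.30 for the large subunit, -0.27 for the small subunit and -0.17 for the paralogs, and with the replicate block added they were -0.30, -0.27 and -0.16, with 68 genes called. With a minimum mean of 20 CPM, which removes RPL39L, the paralog median was -0.15. In all 20 alternative fits 68 genes were lower and called, and of 26 genes named by rule 20 stayed on their side of the threshold. Whether the replicate numbers pair the libraries was not given. After group means were removed, same-numbered libraries correlated at -0.003, -0.021, 0.033 and -0.012. Only 1 of 4 controls (replicate 3) correlated best with its own number. These values show no strong pairing, but a weak shared effect could go unseen. With the replicate block 78 of the genes were called, all lower, and 5926 of all tested genes against 6193 without it. A paralog ratio with 3 against 4 libraries cannot go below an exact permutation p of 0.0571.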
